A study of Mus musculus with 6 samples.

Results

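Nampt encodes nicotinamide phosphoribosyltransferase, the enzyme that FK866 inhibits. The gene was described through every peak that overlapped its mm10 span, chr12:32820335-32853369 on the plus strand, with 20 kb added on each side. These were 23 peaks of 277107 in 6 CUT&Tag libraries. FK866 plus succinate contributed 3 and 7 peaks of its 45446 and 56361, FK866 3 and 4 of 40320 and 43468, and Control 3 and 3 of 50489 and 41023. CUT&Tag cuts and sequences DNA next to an antibody-bound protein or histone mark. What the antibody bound is not stated, so a peak here is only a stretch enriched for an unnamed target, and no RNA or protein level of NAMPT was measured.

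All 6 libraries came from sorted mouse colon group 2 innate lymphoid cells (ILC2s), tissue lymphocytes without antigen receptors that make type 2 cytokines. IL-33, IL-25, IL-7 and IL-2 were in the medium of every group. The cells received FK866 plus succinate, FK866 alone or neither (Control), with 2 libraries per group. Strain, age, sex, dose and time are not given in the labels. It is not stated whether both libraries of a group come from different cultures or mice, and p-values therefore reflect only how far these libraries differ, which may be technical. A peak lay at 14 of 14 ILC2 marker genes in all 6 libraries, against 62.7% of 21887 protein-coding genes. The same held for 3 of 6 T cell, 1 of 4 B cell, 1 of 4 ILC3, 2 of 4 ILC1 and NK, 0 of 4 myeloid and 2 of 4 epithelial markers, and Cd8a, Trac, Ms4a1, Il17a, Il23r, Ncr1, Ifng, Adgre1 and Krt20 had no peak in any library.

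NAD carries electrons in glycolysis and the tricarboxylic acid (TCA) cycle and is consumed by sirtuins, PARP enzymes and CD38, which release nicotinamide. NAMPT joins that nicotinamide to phosphoribosyl pyrophosphate to make nicotinamide mononucleotide, the rate-limiting step of the salvage route, and the NMNAT enzymes then complete NAD. Succinate is a TCA cycle intermediate that succinate dehydrogenase oxidises. Lymphocytes that are activated and growing rely on the salvage route for much of their NAD.

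The 250 bases before the start of Nampt are shown because the main peak covered them in every library. They are taken from RefSeq (GRCm38.p6, the assembly of mm10) at chr12:32820085-32820334, plus strand, and the capitals mark the GC box GGGCGG on either strand.
Nampt promoter: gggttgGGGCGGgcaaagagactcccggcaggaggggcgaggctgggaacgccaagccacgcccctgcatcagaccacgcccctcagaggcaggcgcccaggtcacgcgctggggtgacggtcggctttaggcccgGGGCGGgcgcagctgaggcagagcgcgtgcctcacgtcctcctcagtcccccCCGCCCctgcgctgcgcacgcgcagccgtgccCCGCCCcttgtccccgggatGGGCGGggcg
The stretch held 5 GC boxes that did not overlap, at -244, -114, -62, -30 and -10 from the start. At least 1 GC box was found in 32.7% of 32851 mouse promoters of the same length, and as many as 5 in 1.93%. G and C made up 75.6% of the bases, against a median of 52.4% over all promoters. There were 27 CpG dinucleotides, against a median of 6. The short core ACGTG, 1 form of the sequence that hypoxia-inducible factors recognise, had 1 match, on the minus strand at -82. It occurs in 16.6% of promoters. The form GCGTG was not counted. No match was found for CCAAT (in 33.8% of promoters), TATAAA (12.4%), CACGTG (6.02%), AGATAA (9.99%) or TGANTCA (6.75%), searched on both strands. These matches describe letters only.

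Every library had 1 strong peak at the start of Nampt. It ran from chr12:32819808 in 5 libraries and from chr12:32819793 in FK866 plus succinate 2, which is 527 and 542 bp before the start. The summit lay inside the gene, 653 and 658 bp after the start with FK866 plus succinate, 621 and 653 bp with FK866, and 658 and 653 bp in Control. The summit position therefore spanned 621 to 658 bp over the 6 libraries, past the end of the promoter stretch shown above. The table used here gives no exons or introns, so the position within the transcript was not assigned.

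**Figure D1:**
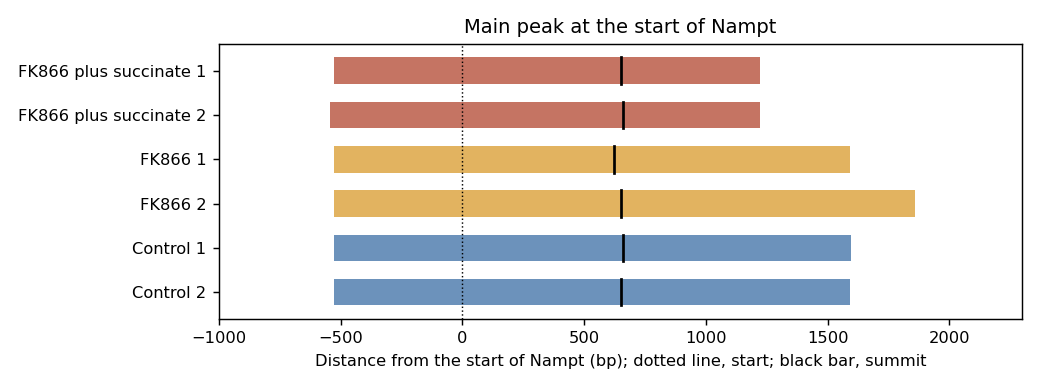
Main peak at the start of Nampt in each library, as distance from the start in bp, with bars from the upstream to the downstream edge and a black mark at the summit. The downstream edge lies at 1224 bp in both FK866 plus succinate libraries and between 1592 and 1857 bp in the other 4.

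The main peak was shorter with FK866 plus succinate than in either other group, and the difference lay at its downstream edge. The peak ended at chr12:32821559 in both FK866 plus succinate libraries, 1224 bp after the start. It ended at chr12:32821927 and chr12:32822192 in the FK866 libraries, 1592 and 1857 bp after the start. In the Control libraries it ended at chr12:32821930 and chr12:32821927, 1595 and 1592 bp after the start. Both FK866 plus succinate libraries thus ended at the same base, at least 368 bp short of the others, and FK866 1 ended where Control 2 did.

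The width of the peak was 1752 and 1767 bp with FK866 plus succinate, 2120 and 2385 bp with FK866, and 2123 and 2120 bp in Control. The group means were 1759.5 ± 10.6 bp, 2252.5 ± 187 bp and 2121.5 ± 2.12 bp (SD, n = 2 each). The FK866 plus succinate libraries were the narrowest of the 6, while the FK866 and Control libraries lay together apart from the long edge of FK866 2. A main peak that was narrower in both FK866 plus succinate libraries than in both FK866 libraries was found at 39.8% of 13734 genes with such a peak in every library, narrower than in both Control libraries at 39.3%, and narrower than in all 4 others at 26.7%, so the separation alone is common in these data.

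Peak width was compared across the 13734 genes with limma on the log2 scale, with Benjamini-Hochberg adjustment over all of them. For FK866 plus succinate against FK866 the Nampt peak differed by -0.35 (SE 0.061), a ratio of 0.782 (unadjusted 95% interval 0.701 to 0.874), and did not pass (adjusted p = 0.156). The median over all genes was -0.06, and 6.66% of genes had a difference at or below that of Nampt. In that comparison 0.342% of genes were called. Against Control the ratio was 0.829 (0.743 to 0.926) and the adjusted p from limma 0.220, with 0.357% of genes called. FK866 against Control gave a ratio of 1.06 (0.949 to 1.18) and an adjusted p of 1.00, with 0.0% called. These comparisons share libraries and are not independent of each other.

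The same fit on the distance from the lead site, the group-blind reference summit 653 bp after the start, to each edge placed the difference on the downstream side. The downstream reach was 571 and 571 bp with FK866 plus succinate, 939 and 1204 bp with FK866, and 942 and 939 bp in Control. FK866 plus succinate minus FK866 was -500.5 bp (SE 93.5, interval -756 to -245, adjusted p = 0.163 from limma). A difference that low was found at 2.20% of genes, the median being -37 bp, and 0.415% of genes were called. Reaches shorter in both FK866 plus succinate libraries were found at 35.4% of genes against FK866, at 35.9% against Control and at 23.9% against all 4. The difference from Control was -369.5 bp (interval -625 to -114, adjusted p = 0.228), where 0.546% were called. FK866 minus Control was 131 bp (interval -125 to 387, adjusted p = 0.996), where 0.0728% were called, and became -1.5 bp without FK866 2. Without that library FK866 plus succinate minus FK866 became -368 bp (adjusted p = 0.109). The upstream reach was 1180 bp in 5 libraries and 1195 bp in FK866 plus succinate 2, and no comparison of it passed (0.124%, 0.109% and 0.051% of genes called for FK866 plus succinate against FK866, against Control, and for FK866 against Control).

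**Figure D2:**
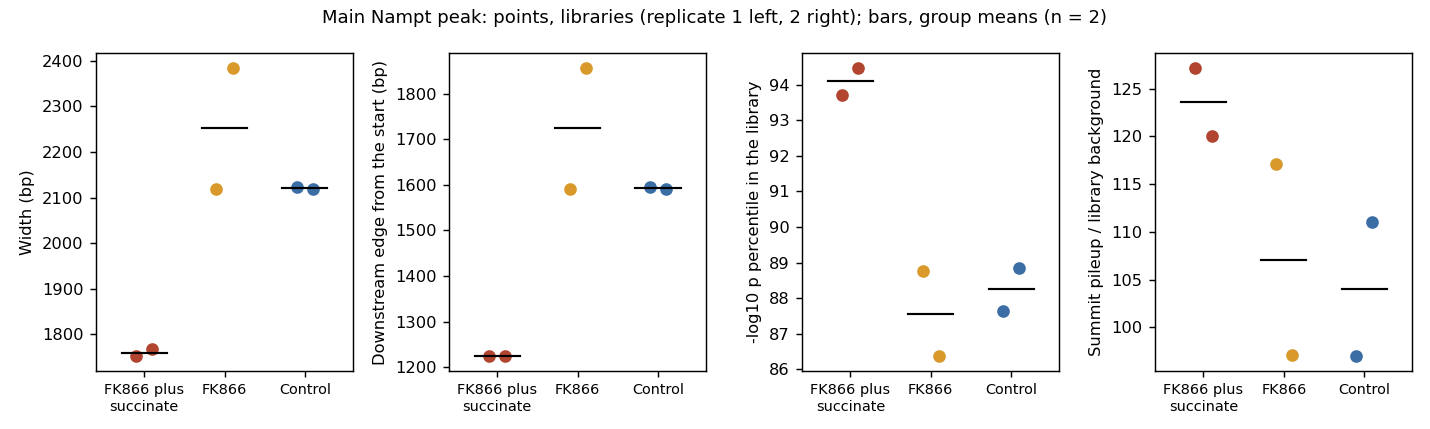
Width, downstream edge, -log10 p percentile within the library, and summit pileup divided by the library background of the main Nampt peak, for FK866 plus succinate, FK866 and Control. Points are libraries and bars are means of 2; the axes do not start at 0, and in every panel both FK866 plus succinate libraries lie to 1 side of the other 4.

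Coverage of the window 2 kb to either side of the lead site says the same in percent. It was 43.8% and 44.2% with FK866 plus succinate, 53.0% and 59.6% with FK866, and 53.1% and 53.0% in Control. Coverage lower in both FK866 plus succinate libraries was found at 36.7% of genes against FK866 and at 37.2% against Control. FK866 plus succinate minus FK866 was -12.3 points (SE 2.33) and did not pass limma's threshold over 15168 genes (adjusted p = 0.178). The difference from Control was -9.05 points (adjusted p = 0.232), and FK866 minus Control was 3.27 points (adjusted p = 0.992). In each of the 3 comparisons 0.0% of genes were called, while 2043 genes had an unadjusted p under 0.05 for FK866 plus succinate against FK866.

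Within 1 kb of the lead site Nampt passed. Coverage was 78.6% in both FK866 plus succinate libraries, 96.95% and 100% with FK866, and 97.1% and 96.95% in Control. The difference was -19.9 points from FK866 (adjusted p = 0.0343 from limma) and -18.5 points from Control (adjusted p = 0.0480). In this narrower window 0.179% and 0.146% of 15095 genes were called, 27 genes and 22. The windows of 2 and 3 kb gave no call, and in the 1 kb window FK866 2 stood at the ceiling. This window cut off the far edge of FK866 2, which reached 1204 bp past the lead site, and so reduced the spread between the FK866 libraries. Their SD was 2.16 points here and 4.68 points in the 2 kb window. The 1 kb window was not refitted with a library left out.

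The height of the main peak went the other way from its width. Its fold over local background was 9.36 and 9.25 with FK866 plus succinate, 7.98 and 7.64 with FK866, and 7.56 and 8.05 in Control. Its -log10 p stood at percentile 93.7 and 94.5 of the FK866 plus succinate lists, 88.8 and 86.4 of the FK866 lists, and 87.6 and 88.9 of the Control lists. The FK866 plus succinate libraries were the highest on both scales, and FK866 overlapped Control. A fold higher in both FK866 plus succinate libraries was found at 27.0% of genes against FK866, at 27.0% against Control and at 16.7% against all 4. A percentile higher in both was found at 41.8% of genes against FK866, at 20.7% against Control and at 15.1% against all 4. Percentiles also move with the number of weak peaks in a list, and FK866 plus succinate 2 had the longest list.

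The percentile was 6.53 points higher with FK866 plus succinate than with FK866 (SE 2.59, adjusted p = 0.509 from limma), where the median gene was 2.31 points higher and 0.0146% of genes were called. It was 5.85 points higher than in Control (adjusted p = 0.953, 0.00728% called), where the median gene was 1.13 points higher. FK866 against Control gave -0.681 points (adjusted p = 0.999, 0.0146% called). None of these passed the threshold. The rise of the median gene against FK866 was absent under some filters of the lists. With lists of equal length the median gene was at -0.069 points and Nampt at 5.56. With peaks of adjusted p under 0.05 the median gene was at -1.29 points and Nampt at 7.57.

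The fold was read as (k + 1)/(b + 1) and p as an upper Poisson tail, an assumption because the peak caller is unnamed. On that reading they together fix the number of overlapping fragments, k, at a peak's summit and the local background, b. The number came out whole (within 0.02) for 100% of the peaks of every list. At Nampt the summit pileup was 221 and 150 fragments with FK866 plus succinate, 247 and 155 with FK866, and 179 and 238 in Control. Exact Poisson 95% intervals ran from 127 to 176 fragments for the lowest and from 217 to 280 for the highest, and cover counting error only. The library background, a measure of depth, was 1.74 and 1.25 fragments with FK866 plus succinate, 2.11 and 1.60 with FK866, and 1.85 and 2.14 in Control. The lowest raw pileup was that of FK866 plus succinate 2, the shallowest library, but the order of the others did not follow depth throughout.

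Divided by the library background, the summit stood at 127 and 120 with FK866 plus succinate, 117 and 97.1 with FK866, and 96.97 and 111 in Control. The FK866 plus succinate libraries were again the highest, with FK866 1 next. On the log2 scale the difference from FK866 was 0.21 (SE 0.11), a ratio of 1.16 (0.997 to 1.35, adjusted p = 0.355 from limma), and from Control a ratio of 1.19 (1.02 to 1.38, adjusted p = 0.215). FK866 against Control gave a ratio of 1.03 (0.884 to 1.19, adjusted p = 1.00). The log2 difference from FK866 became 0.08 without FK866 2 and 0.35 without FK866 1, and that from Control, 0.25 with all libraries, became 0.15 without Control 1. The shares of genes called were 1.43%, 2.40% and 0.0218%, and the medians over all genes were 0.04, 0.06 and 0.02. A summit higher by this measure in both FK866 plus succinate libraries was found at 25.9% of genes against FK866, at 34.1% against Control and at 19.3% against all 4. A main peak narrower and of higher percentile in both than in the other 4 was found at 4.50% of genes. A main peak that was both narrower and taller by this measure in both FK866 plus succinate libraries than in the other 4 was found at 5.31% of genes.

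The local background at Nampt, also divided by that of the library, was 13.1 and 12.3 with FK866 plus succinate, 14.3 and 12.2 with FK866, and 12.4 and 13.4 in Control. The 3 groups overlapped, and FK866 plus succinate against FK866 gave a ratio of 0.961 (0.804 to 1.15, adjusted p = 0.785 from limma, 4.21% of genes called). Against Control the log2 difference was -0.02 (adjusted p = 0.934, 5.58% called), and FK866 against Control gave 0.04 (adjusted p = 0.990, 0.0291% called). Both larger shares rest on all 6 libraries, since the 578 and 767 genes called became 12 to 66 and 46 to 154 when any 1 library was left out. At these local backgrounds the smallest pileup with a Poisson p under 0.05 was 31 and 22 fragments with FK866 plus succinate, 39 and 27 with FK866, and 31 and 38 in Control. In units of library background that is 17.8 and 17.6, 18.5 and 16.9, and 16.8 and 17.7 in the same groups. These values are for the background at the summit, and none was obtained at the downstream edge, where the peaks differed. The library background averaged 1.49 fragments with FK866 plus succinate, 1.85 with FK866 and 1.99 in Control. FK866 plus succinate 2, the shallowest library, had a narrow Nampt peak (1767 bp), and FK866 2, the second shallowest, had the widest (2385 bp). The part of depth in the shorter peak was not tested.

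**Figure D3:**
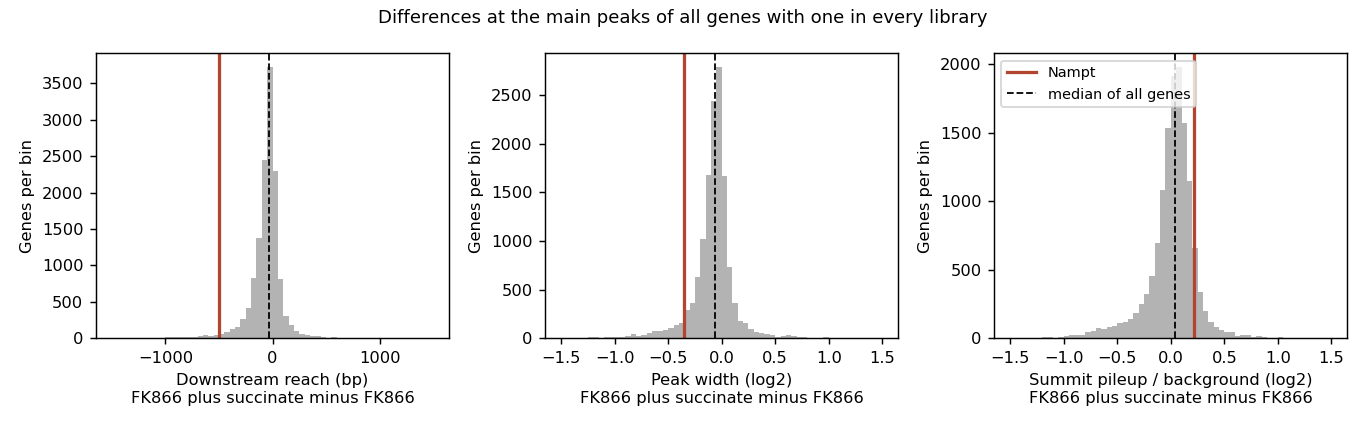
Differences of FK866 plus succinate minus FK866 at the main peak of every gene that had one in all 6 libraries: downstream reach in bp, width in log2 and summit pileup over library background in log2, as genes per bin. The red line is Nampt (-500.5 bp, -0.35 and 0.21) and the dashed line the median gene; Nampt lies in the lower tail of the first panel and on the shoulders of the other 2.

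Peak edges that agreed to the base were common among libraries, the same downstream edge being found in at least 2 of 6 at 58.1% of the 13734 genes. The same upstream edge in at least 5 libraries, as at Nampt, was found at 1.73% of them, and the same downstream edge in both FK866 plus succinate libraries at 8.50%. The cause of shared edges was not tested.

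Away from the start the region held 17 weak peaks at 8 sites, with 3 to 8 fragments at the summit, folds of 1.76 to 3.56 and widths of 256 to 800 bp. Of these 3 had an adjusted p under 0.05 in their own list. Of all peaks, 25187 of 45446 and 26853 of 56361 did with FK866 plus succinate. With FK866 28252 of 40320 and 26872 of 43468 did, and in Control 27200 of 50489 and 28269 of 41023. FK866 plus succinate had 8 of the 17, FK866 5 and Control 4. The only other annotated gene in the region was Gdap10, a long non-coding RNA gene inside Nampt at chr12:32824116-32826919.

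The most frequent weak site lay before the gene at chr12:32807494-32808314, about 12 kb upstream of the start. It had a peak in 5 libraries, with 6 fragments in FK866 plus succinate 1, 8 and 6 in FK866, and 8 and 7 in Control, and none in FK866 plus succinate 2. Its adjusted p was under 0.05 only in FK866 1 and Control 1. A site inside the gene at chr12:32847812-32848408 had 6 fragments in both FK866 libraries and in Control 2, and no peak in either FK866 plus succinate library or in Control 1. A site at chr12:32826349-32827383 had a peak with 6 and 7 fragments in the FK866 plus succinate libraries and 7 in FK866 2, none in Control, and touched the end of Gdap10 in FK866 plus succinate 2 and FK866 2. With so few fragments, a difference in presence at these sites was not detectable at this depth. A summit of 6 fragments has an exact Poisson interval of 2.20 to 13.1.

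FK866 plus succinate 2 alone had 4 of the sites. The strongest of them, inside the gene at chr12:32836284-32836991, reached percentile 62.3 of its list with 7 fragments. The other 3 lay at chr12:32810693-32810953, chr12:32852209-32852586 and chr12:32859353-32859750. The remaining site, chr12:32856360-32856965, lies past the end of the gene and had 3 fragments in FK866 plus succinate 2 and 7 in Control 1.

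**Figure D4:**
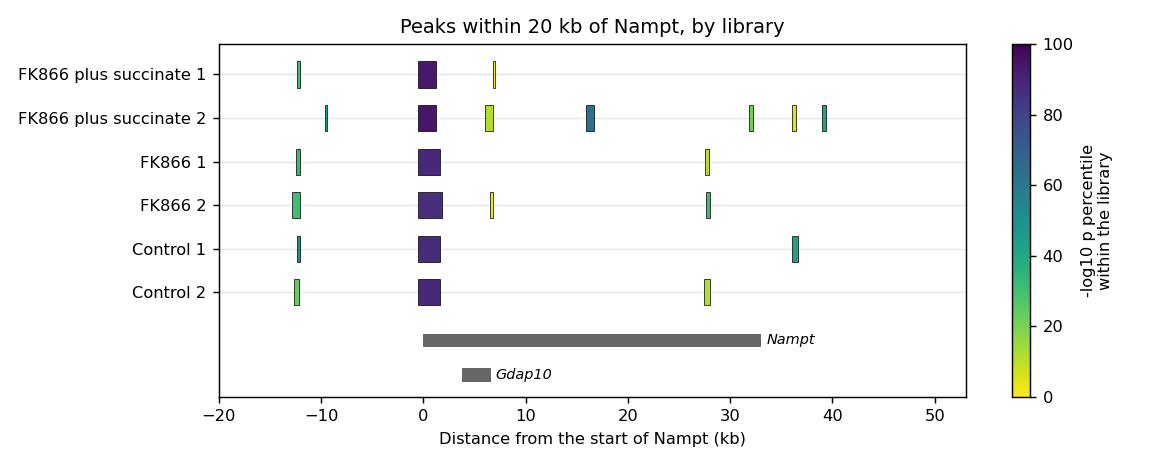
Peaks from 20 kb before to 20 kb after Nampt in each library, as distance from the start in kb, coloured by -log10 p percentile within the library, above the spans of Nampt and Gdap10. The main peak stands at percentile 86.4 to 94.5 in every library, and the weak peaks at 0.929 to 62.3.

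Summed over the region, peaks covered 2393 and 4693 bp with FK866 plus succinate, 2871 and 3860 bp with FK866, and 2979 and 3152 bp in Control. The groups overlapped in all 3 comparisons, and the two-sided exact permutation test gave p = 1.00 in each, where 2 libraries against 2 allow no p below 0.333. FK866 plus succinate minus FK866 was 177.5 bp with all libraries and -972.5 bp without FK866 plus succinate 2. The number of peaks, 3 and 7, 3 and 4, and 3 and 3 in the same groups, gave exact permutation p = 1.00 as well.

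No gene of a list of NAD synthesis and use passed the test of window coverage, where 0.0% of all 15168 genes were called. The list held 31 genes other than Nampt, of which 29 had a window that could be tested and Tdo2 and Kynu, of the route from tryptophan, had no peak. For FK866 plus succinate against FK866 0 of the 29 passed limma's threshold, 11 were higher and 18 lower, with a median of -1.49 points against -1.52 over all genes, of which 70.4% were lower. In points of coverage 0 of the 29 had a difference below that of Nampt, where 2.93% of all genes were at or below it, so the count is near the background. In log2 width 2 of the 28 with a main peak in every library did. There 6.66% of all 13734 genes were at or below Nampt, so this count is near the background too. For FK866 against Control 0 of 29 passed, 14 were higher and 15 lower, and the median was -0.11 against -0.04 points over all genes, of which 50.7% were lower. For FK866 plus succinate against Control 0 of 29 passed, 11 were higher and 18 lower, and the median was -1.69 against -1.56 points over all genes, of which 71.2% were lower.

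Nmnat1, the nuclear enzyme that completes NAD from nicotinamide mononucleotide, had 38.1% and 32.1% coverage with FK866 plus succinate, 34.9% and 33.5% with FK866, and 33.1% and 38.1% in Control. Nmnat3, its mitochondrial counterpart, had 32.9% and 32.15% with FK866 plus succinate, 32.4% in both FK866 libraries, and 37.4% and 33.2% in Control. FK866 plus succinate overlapped FK866 at both genes and Control at Nmnat1. At Nmnat3 it lay below both Control libraries (adjusted p = 0.578 from limma). Neither gene passed in any comparison. Nmrk1, a kinase that feeds nicotinamide riboside into the same product, had 55.2% and 46.3% with FK866 plus succinate, 60.7% and 55.4% with FK866, and 62.55% and 54.55% in Control. Naprt, which starts NAD synthesis from nicotinic acid and so bypasses NAMPT, had 29.4% and 30.6% with FK866 plus succinate, 32.1% and 31.1% with FK866, and 32.85% and 32.25% in Control. The FK866 plus succinate libraries were the lowest at Naprt, though limma's adjusted p was 0.644 against FK866 and 0.495 against Control. At Nmrk1 they lay below both FK866 libraries (adjusted p = 0.520 from limma) and overlapped Control. Such separations were found at 36.7% of all genes against FK866 and at 37.2% against Control, so they are common.

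**Figure D5:**
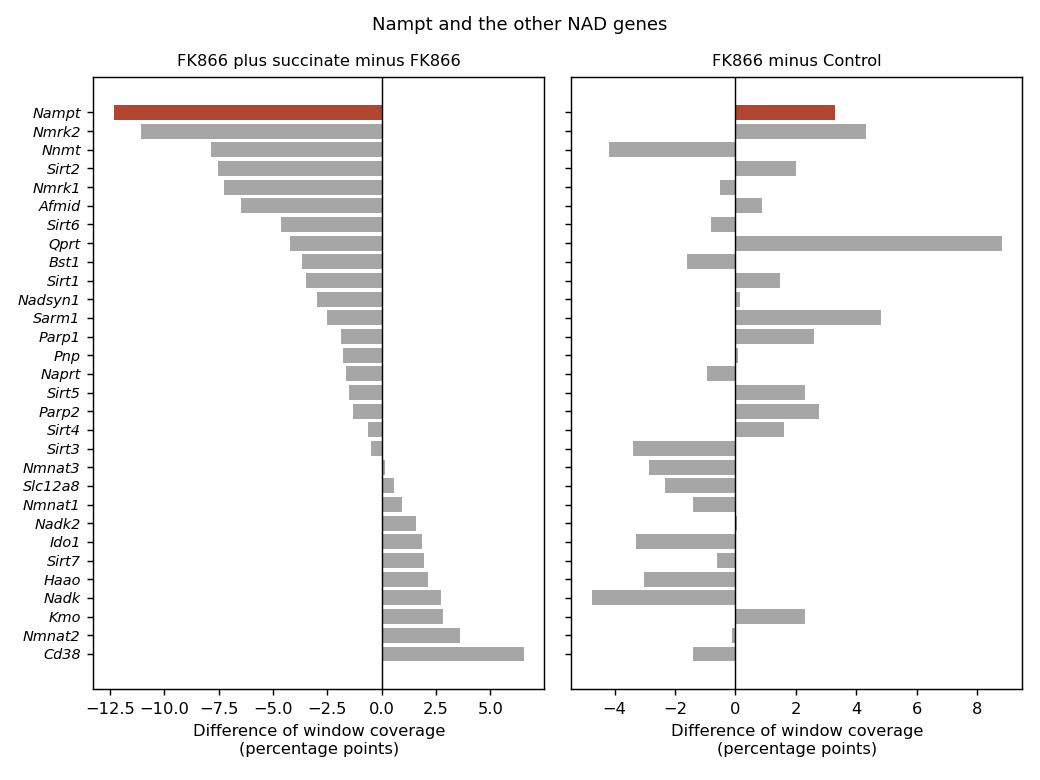
Difference of window coverage in percentage points at Nampt (red) and the 29 other NAD genes with a tested window, for FK866 plus succinate minus FK866 (left) and FK866 minus Control (right). Nampt has the lowest value on the left (-12.3 points) and a small positive one on the right (3.27 points). No gene shown passed limma's adjusted threshold in either comparison, and 0.0% of all 15168 genes did.

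The nearest protein-coding genes lie far outside the region. Ccdc71l, 437 kb before Nampt, had coverage of 50.1% and 58.6% with FK866 plus succinate, 53.85% and 65.9% with FK866, and 50.3% and 50.45% in Control. Sypl, 100 kb after it, had 40.2% and 38.5% with FK866 plus succinate, 40.9% and 42.75% with FK866, and 40.15% and 46.1% in Control. At Ccdc71l the FK866 plus succinate libraries overlapped both other groups. At Sypl they overlapped Control and lay below both FK866 libraries, as at 36.7% of all genes (adjusted p = 0.676 from limma).

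The genes whose coverage over the 6 libraries, centred on its own mean, lay closest to that of Nampt were Plekha3, 4932438H23Rik, Ngef, Sec61a1 and Tmco1. Their root mean square differences from Nampt lay between 1.23 and 1.53 points among 15168 genes, where a flat profile would differ by 5.55. Plekha3, the closest, had 39.9% and 41.9% with FK866 plus succinate, 51.2% and 55.75% with FK866, and 51.9% and 48.55% in Control. These genes were picked for likeness, so their profiles are a description.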

How the data were processed

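Groups and replicate numbers follow the labels. The submitters' processing notes name cutadapt 1.9, Bowtie2 2.5.0 and the mm10 build, and no source used here names the peak caller. The authors deposited 1 peak list per library in a 10-column layout, with a score, a fold ratio over local background, and -log10 p and -log10 q values that each refer to 1 library. The score was not used. Depth in reads is unknown.

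Peaks on chromosomes 1 to 19, X and Y were kept. To choose a gene's lead site, each summit within the gene or 2 kb of it was ranked by its -log10 p percentile averaged across the 6 libraries, and the top one was kept; 15891 of 21887 protein-coding genes of GRCm38.p6 had one. The main peak was the one over that site or the nearest within 2 kb. Upstream and downstream follow the RefSeq strand, known for 12675 genes, and for other genes the lower coordinate counts as upstream. Windows covered in at least 2 libraries, and main peaks present in all 6, were compared with limma 3.58.1 in R 4.3.3 (eBayes with a trend, 1 spread over all 6 libraries, threshold 0.05). Other steps used Python 3.11.15, pandas 2.3.3, numpy 2.4.6 and scipy 1.17.1.

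Summit pileup k and local background b were solved from the fold, assumed to be (k + 1)/(b + 1), and p, assumed to be the upper Poisson tail above k. Where the higher solution gave no whole k, the lower was tried and kept if whole. The library background was the commonest b. This measure was added after other values had been seen. The scripts were tested on simulated data, for limma with large changes and independent normal noise. That setting does not show how limma does with small changes or with shared peak edges. Named genes were Nampt, an NAD list with values for Nmnat1, Nmnat3, Nmrk1 and Naprt, the nearest coding gene on each side, and the 5 genes nearest in profile. The gene, lists and tests were chosen with earlier results of these data known.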

Additional observations from a re-analysis of the deposited data

How the results depend on the processing

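Of the Nampt comparisons, 1 kind changed its side of the threshold: in the 1 kb window, coverage for FK866 plus succinate against FK866 (-19.9 points) and against Control (-18.5 points) passed. Width, downstream reach, percentile and summit pileup with added succinate kept their direction and stayed above the threshold under all 12 alternatives each. Leaving out 1 library moved the log2 width against FK866 between -0.44 and -0.27 the downstream reach between -633 and -368 bp, the log2 pileup between 0.08 and 0.35, and the percentile between 5.33 and 7.72 points. Against Control the log2 pileup ranged from 0.15 to 0.35. Quantile normalization moved the median coverage difference against FK866 to 0.32 points and left Nampt at -9.97 points (adjusted p = 0.314).

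FK866 against Control had no stable direction. Without 1 library it ranged from -0.037 to 6.59 points of coverage, -0.0010 to 0.17 in log2 width, -1.5 to 263.5 bp of downstream reach, -1.88 to 0.514 points of percentile and -0.095 (-0.059 without Control 1) to 0.17 in log2 pileup. The percentile difference was 0.516 with peaks of adjusted p under 0.05, 0.443 with lists of equal length and 0.402 after quantile normalization. Log2 local background without 1 library ranged from -0.079 (-0.023 without Control 1) to 0.15 for FK866 against Control, from -0.17 to 0.057 for FK866 plus succinate against FK866, and from -0.080 to 0.036 (0.025 without FK866 plus succinate 2) against Control. The cause of these changes was not tested.

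Covered bases of the region were -344.5 bp against FK866 and -147 bp against Control with peaks of adjusted p under 0.05, -582.5 and -430 bp with lists of equal length, and -139 and -147 bp with the higher-scoring 50% of each list, where FK866 minus Control was -8 bp and -0.5 peaks. Without 1 library they ranged from -972.5 to 1327.5 bp (-317 bp without FK866 1) against FK866, from -672.5 to 1627.5 bp against Control, and from -194.5 to 794.5 bp for FK866 against Control, and peak number against FK866 from -0.5 to 3.5.

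Counts of genes called are given for FK866 plus succinate against FK866 and then against Control. Coverage had 16 and 9 with peaks of adjusted p under 0.05, 14 and 9 with the higher-scoring 50%, and 27 and 22 in the 1 kb window. Width had 23 and 22 after quantile normalization, and 0 to 81 and 0 to 91 without 1 library. Percentile had 4 and 9 with peaks of adjusted p under 0.05, 5 and 5 with the higher-scoring 50%, 0 and 2 after quantile normalization, 1 and 3 with no gene filter, 3 against Control with lists of equal length, and 4 to 41 and 0 to 47 without 1 library. Downstream reach had 57 and 75 with all libraries, 23 and 36 after quantile normalization, and 0 to 50 and 0 to 52 without 1 library, with 0 against FK866 without either Control or either FK866 library, and at most 9 against Control without any of these 4. Upstream reach had 9 against FK866 after quantile normalization, and 0 to 46 and 0 to 54 without 1 library. Local background had 578 and 767 with all libraries, and 12 to 66 and 46 to 154 without 1 library. Pileup had 310 against FK866 with no gene filter, and 59 to 137 and 43 to 470 without 1 library. For FK866 against Control, width had 3 after quantile normalization and 0 to 6 without 1 library, percentile had 1 with lists of equal length, with the higher-scoring 50% and after quantile normalization and 2 to 5 without 1 library, pileup had 1 with the higher-scoring 50%, downstream reach had 0 to 6 and upstream reach 0 to 4 without 1 library, and local background had 1 with peaks of adjusted p under 0.05, 2 with lists of equal length, 0 with the higher-scoring 50% and after quantile normalization, and 0 to 30 without 1 library.

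Deviations of replicates of the same number were nearly uncorrelated over genes (-0.064 to 0.085). With 2 libraries a group this cannot show whether such replicates share a batch or a culture. With the replicate block, width, downstream and upstream reach calls became 0 and 0, percentile calls 6 and 3, pileup calls 426 and 552 and local background calls 64 and 83 in the same 2 comparisons. For FK866 against Control, calls of either reach became 0 and of local background 1, and Nampt width against FK866 had an adjusted p of 0.234. With 2 libraries a group, and depth known only as a background level, small differences at Nampt were not detectable.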
